A study of Mus musculus with 6 samples.

Results

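Genes for ligands of the transforming growth factor-β (TGF-β) family and the convertase Furin were followed in mouse bone marrow-derived macrophages (BMMs) on their way to osteoclasts. The set named 10 genes: *Inhba*, *Inhbb*, *Tgfb1*, *Tgfb2*, *Tgfb3*, *Bmp2*, *Gdf11*, *Mstn*, *Gdf15* and *Furin*. Each was taken from a probe set that the platform annotation paired with that symbol alone, the brightest where there were several. This gave 9 of the 10 genes, among 19938 genes that could be read in this way, and *Gdf15* was not analysed here. Each of the 9 genes had a single such probe set.

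BMMs were grown with M-CSF from marrow flushed out of the tibiae of mice. The sample labels give an age of 9 weeks, the upper end of the range in the study's methods, which name female C57BL animals. For the next 24 h all cells were kept in M-CSF (100 ng/ml) with RANKL, the cytokine that drives osteoclast formation, at 50 ng/ml. One group was given 100 ng/ml recombinant GDF11 (rGDF11) as well, and the other was the vehicle control, called RANKL alone here. There were 3 biological replicates per group with 1 Affymetrix Mouse Gene ST array each. The sources used here do not state if each replicate was a different mouse. The p-values therefore set the difference between groups only against the spread of these samples, which may be technical. Values are log2 values after robust multichip averaging (RMA), and "rose" and "fell" are used where limma's moderated test gave an adjusted p under 0.05 over the 23410 probe sets with a gene symbol.

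TGF-β family ligands are dimeric secreted proteins that are made as precursors, and Furin or a related convertase cuts the mature ligand from its prodomain. TGF-βs, activins, GDF11 and myostatin act through receptors that phosphorylate Smad2 and Smad3, whereas BMPs act mainly through Smad1 and Smad5. In bone, TGF-β is stored in the matrix in a latent form, and activin A and TGF-β are known to act on osteoclast precursors.

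Promoter sequences are shown for the 3 genes that rose, because Smad3 binds DNA and forms of its short binding element can be looked for in them. They are the 250 bases before the transcription start in RefSeq (mouse build GRCm38.p6), written 5′ to 3′ on the strand of the gene, with CAGACA or its reverse complement TGTCTG in capitals. *Inhba* lies on the plus strand at chr13:16011601-16011850. *Tgfb2* lies on the minus strand at chr1:186705990-186706239. *Furin* has a pair of start sites on the minus strand, at chr7:80405437-80405686 and chr7:80402813-80403062.
Inhba: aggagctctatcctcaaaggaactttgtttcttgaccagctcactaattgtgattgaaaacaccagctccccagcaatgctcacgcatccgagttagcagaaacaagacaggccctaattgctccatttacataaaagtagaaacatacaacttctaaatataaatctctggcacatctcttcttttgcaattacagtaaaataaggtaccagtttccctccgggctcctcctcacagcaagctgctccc
Tgfb2: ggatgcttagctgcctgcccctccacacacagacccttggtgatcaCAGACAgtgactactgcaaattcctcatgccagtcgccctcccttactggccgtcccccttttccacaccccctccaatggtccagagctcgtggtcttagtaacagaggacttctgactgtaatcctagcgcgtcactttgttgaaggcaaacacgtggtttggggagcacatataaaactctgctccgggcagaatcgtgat
Furin, first start: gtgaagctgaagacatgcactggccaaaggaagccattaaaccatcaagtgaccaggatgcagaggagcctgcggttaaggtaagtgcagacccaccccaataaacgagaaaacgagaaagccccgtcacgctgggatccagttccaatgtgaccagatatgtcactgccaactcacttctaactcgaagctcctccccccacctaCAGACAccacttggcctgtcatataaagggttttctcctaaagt
Furin, second start: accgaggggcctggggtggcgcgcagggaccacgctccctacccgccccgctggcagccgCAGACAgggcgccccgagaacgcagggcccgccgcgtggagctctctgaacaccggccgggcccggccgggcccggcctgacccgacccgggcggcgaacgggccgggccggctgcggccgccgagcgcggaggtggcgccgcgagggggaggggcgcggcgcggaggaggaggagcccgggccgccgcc

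The *Tgfb2* promoter held CAGACA at position -204 from the start, and both *Furin* promoters held it, at -44 and at -190. The *Inhba* promoter held none. Promoters were found for 8 of the 10 genes, 10 promoters in all, and 4 of these held the motif, the fourth being that of *Mstn*. Of 32851 mouse promoters cut to the same length, 17.1% held CAGACA or TGTCTG. The Smad palindrome GTCTAGAC and the AP-1 sites TGAGTCA and TGACTCA were in 0 of the 10, against 0.167% and 4.46% of all promoters. A match is a description of the letters and not a binding site.

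Of the 9 genes measured, *Inhba*, *Furin* and *Tgfb2* rose with rGDF11, *Bmp2* fell and 5 were not called. Over all probe sets tested, 7.31% rose and 8.64% fell. The 3 rGDF11 arrays lay above the 3 RANKL-alone arrays for 4 genes and below them for 2, where such a separation was seen in 16.4% and in 16.5% of all probe sets. The median log2 difference of the 9 genes was 0.08, against 0.02 over all probe sets. The same 4 genes passed the threshold of the study's methods, a 1.5-fold difference and a p under 0.01. In bulk RNA, more cells of a type and more RNA per cell cannot be told apart.

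**Figure D1:**
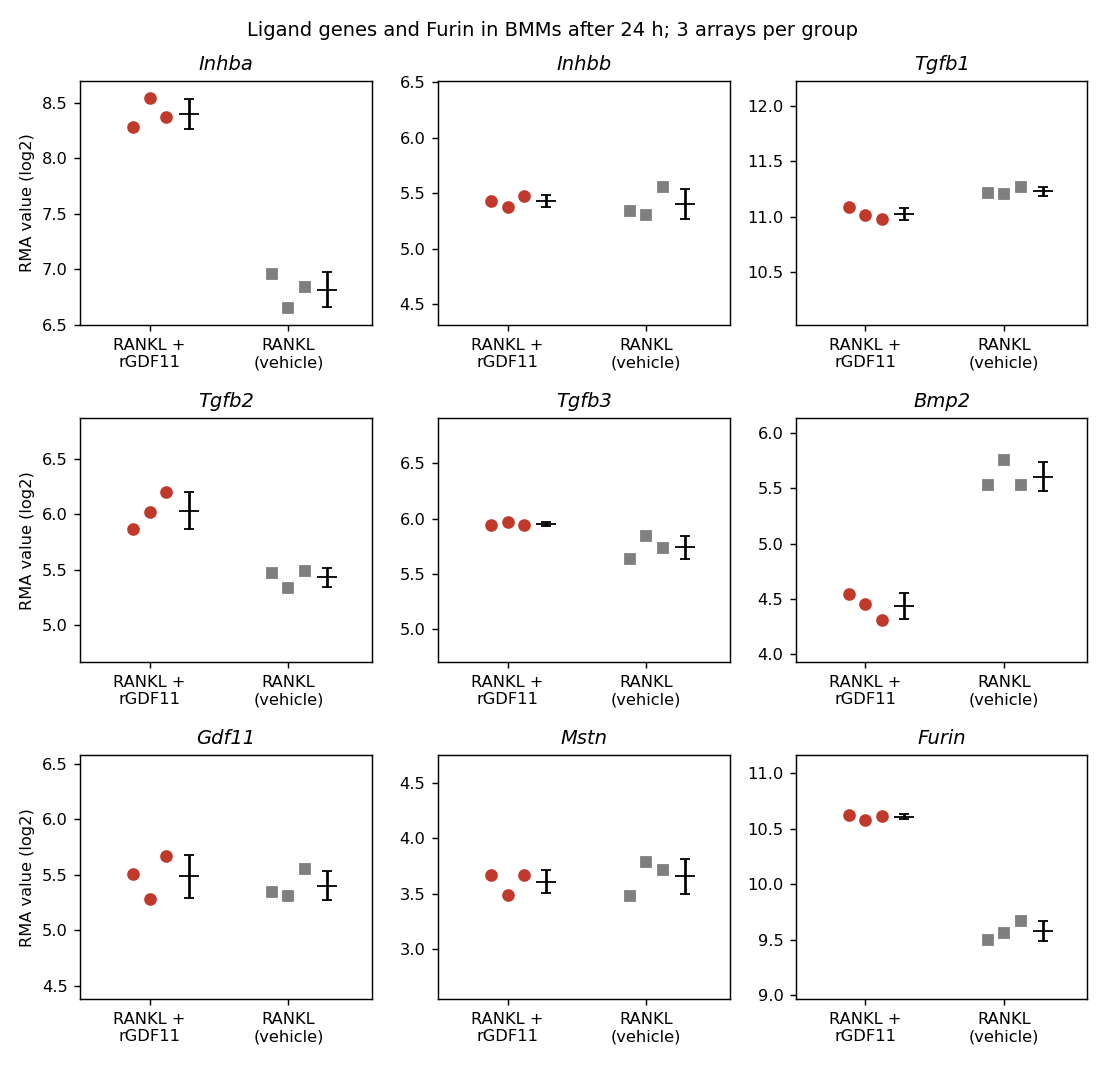
RMA values (log2) of the 9 genes on each array, with rGDF11 plus RANKL as red circles on the left and RANKL alone as grey squares on the right. Bars give mean and SD (n = 3), every panel spans the same range of the axis, and the groups are farthest apart for *Inhba*, *Bmp2* and *Furin*.

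Activin subunits were read by *Inhba*, which encodes the chain of activin A, and *Inhbb*, which encodes the chain of activin B. *Inhba* had RMA values of 8.28, 8.54 and 8.37 on the rGDF11 arrays and of 6.96, 6.65 and 6.84 on the arrays of RANKL alone. The lowest array with rGDF11 stood 1.32 above the highest array without it, and the ranges within the groups were 0.26 and 0.31. The means were 8.40 ± 0.13 with rGDF11 and 6.82 ± 0.16 without (SD, n = 3 each). This was a 2.99-fold rise (95% confidence interval 2.54 to 3.53, adjusted p = 5.54e-05, limma), and the 41st largest rise among all probe sets. *Inhbb* had values of 5.43, 5.38 and 5.48 with rGDF11 and of 5.34, 5.31 and 5.56 with RANKL alone. These groups overlapped, and the log2 difference of 0.03 had a confidence interval of -0.16 to 0.22 (adjusted p = 0.871). The *Inhbb* signal was near background in both groups. The log2 distance from *Inhbb* to *Inhba* within an array was wider with rGDF11 by 1.55, with no overlap between the groups (exact permutation p = 0.1, two-sided, the smallest that 3 against 3 arrays allow, and 0.125 adjusted over 5 such pairs).

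The convertase gene *Furin* had values of 10.63, 10.58 and 10.62 with rGDF11 and of 9.50, 9.56 and 9.67 with RANKL alone. The rGDF11 arrays spanned a range of 0.0449 and lay at least 0.91 above every array without rGDF11. The means were 10.61 ± 0.02 with rGDF11 and 9.58 ± 0.09 without (SD, n = 3 each). The rise was 2.04-fold (95% confidence interval 1.84 to 2.28, adjusted p = 5.60e-05, limma), and the 142nd largest.

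Of the 3 TGF-β genes, *Tgfb2* rose and the other two were not called. *Tgfb2* had values of 5.87, 6.02 and 6.20 with rGDF11 and of 5.47, 5.33 and 5.49 with RANKL alone. All rGDF11 arrays were higher, with a gap of 0.38 between the groups. The means were 6.03 ± 0.17 with rGDF11 and 5.43 ± 0.09 without (SD, n = 3 each), and the rise was 1.52-fold (95% confidence interval 1.30 to 1.77, adjusted p = 0.00436), the 468th largest. *Tgfb3* had values of 5.94, 5.97 and 5.94 with rGDF11 and of 5.64, 5.85 and 5.74 with RANKL alone. These groups did not overlap either, but the gap was 0.09 and the log2 difference of 0.21 (95% confidence interval 0.05 to 0.38) was not called (adjusted p = 0.0913).

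*Tgfb1*, the isoform known as the main one of blood and immune cells, had values of 11.09, 11.02 and 10.98 with rGDF11 and of 11.21, 11.20 and 11.27 with RANKL alone. Here the rGDF11 arrays were the lower ones, by a gap of 0.11. The log2 difference of -0.20 (95% confidence interval -0.34 to -0.06) was not called (adjusted p = 0.0714). It passed the threshold under 3 of 19 alternatives, with adjusted p between 0.00294 and 0.190 over them. Relative to *Tgfb1* on the same array, *Tgfb2* was higher with rGDF11 by 0.80 and *Tgfb3* by 0.41 on the log2 scale, each without overlap between the groups (exact permutation p = 0.1, and 0.125 adjusted over the 5 pairs).

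*Bmp2*, a ligand of the bone morphogenetic protein branch, was the gene that fell. Its values were 4.54, 4.46 and 4.31 with rGDF11 and 5.53, 5.75 and 5.53 with RANKL alone. Every rGDF11 array was lower, and the groups were 0.98 apart. The means were 4.44 ± 0.12 with rGDF11 and 5.60 ± 0.13 without (SD, n = 3 each), a log2 difference in signal of -1.17 (95% confidence interval -1.38 to -0.95, adjusted p = 0.000132, limma). No fold is given, because the signal with rGDF11 lay in the range of background probe sets.

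rGDF11 was added as protein, so the *Gdf11* probe set read the transcript of the cells themselves. Its values were 5.50, 5.29 and 5.67 with rGDF11 and 5.35, 5.31 and 5.55 with RANKL alone. The groups overlapped, and the log2 difference was 0.08 (95% confidence interval -0.18 to 0.34, adjusted p = 0.704). The *Gdf11* signal was near background in both groups. *Mstn*, which encodes myostatin, the closest relative of GDF11 and a ligand known from skeletal muscle, had values of 3.67, 3.49 and 3.67 with rGDF11 and of 3.48, 3.78 and 3.71 with RANKL alone. These overlapped too, with a log2 difference of -0.05 (95% confidence interval -0.27 to 0.17, adjusted p = 0.810). The *Mstn* signal was at background in both groups, so these values say nothing about its transcript.

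Several of these probe sets were dim. As a gauge of background, 1210 probe sets of olfactory and vomeronasal receptor genes, which belong to sensory neurons, had a median RMA value of 3.58 and a 95th percentile of 5.30. *Mstn* lay in the middle of this range, above 52.6% of the receptor probe sets. *Bmp2* lay above the 95th percentile with RANKL alone, at 5.60, and below it with rGDF11, at 4.44, so its level with rGDF11 was not distinguished from background. The log2 difference of *Bmp2* is therefore one of measured signal. Of the 1210 receptor probe sets, 20 were called higher and 7 lower with rGDF11. By their mean over all 6 arrays, *Gdf11*, *Inhbb*, *Tgfb2* and *Tgfb3* were above 96.6%, 96.4%, 98.3% and 98.6% of the receptor probe sets. *Inhba*, *Furin* and *Tgfb1* were above at least 99.9%. With RANKL alone *Tgfb2* had a mean of 5.43, near the 95th percentile of 5.30, so its 1.52-fold rise started near background. *Gdf11* and *Inhbb* were also near it, with means of 5.40 each with RANKL alone and of 5.49 and 5.43 with rGDF11. Their differences are therefore those of signals near background. Probe sets differ in brightness for the same amount of RNA, so these values do not rank the genes by transcript number.

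**Figure D2:**
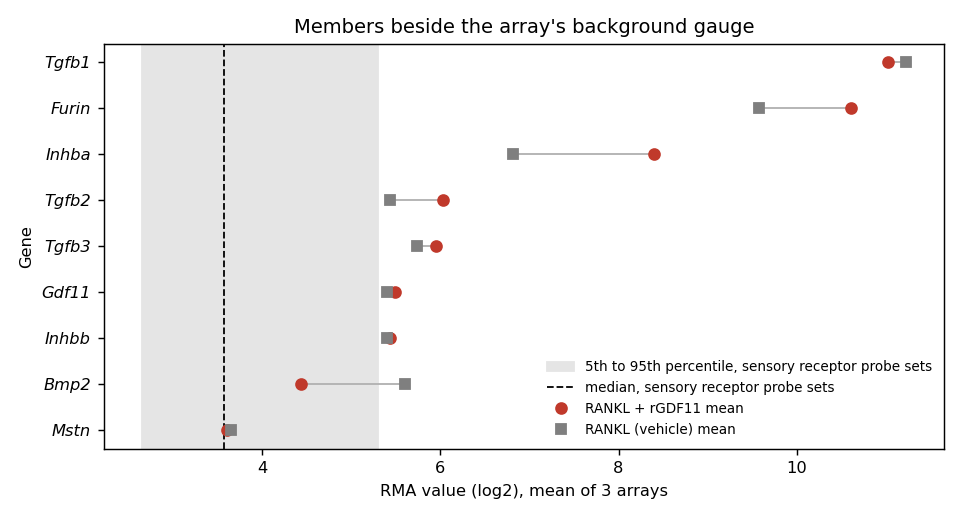
Mean RMA value (log2, n = 3) of each gene with rGDF11 (red circles) and with RANKL alone (grey squares), joined by a line. The grey band is the 5th to 95th percentile of the 1210 sensory receptor probe sets, 2.65 to 5.30, and *Bmp2* crosses its upper edge while *Mstn* stays at its middle.

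Among 23 other ligands of the family with a probe set, 1 rose and 1 fell, against 7.31% and 8.64% of all probe sets. The median log2 difference of these 23 ligands was 0.03. *Bmp6*, another BMP known for its part in iron control, rose by a log2 difference of 0.31 (adjusted p = 0.0289). Its mean was 5.61 ± 0.05 with rGDF11, against 5.31 ± 0.11 with RANKL alone (SD, n = 3 each). The level with RANKL alone was close to the 95th percentile of the sensory receptor probe sets, 5.30. Replicate 2 of RANKL alone, at 5.18, lay below it. *Gdf3*, a ligand known from early embryos and fat tissue and found in macrophages, fell to 10.01 ± 0.03 with rGDF11, against 10.63 ± 0.05 with RANKL alone (SD, n = 3 each), a log2 difference of -0.63 (adjusted p = 0.000355). Over all 31 ligand genes measured, 14 lay above the 95th percentile of the sensory receptor probe sets and 17 did not.

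**Figure D3:**
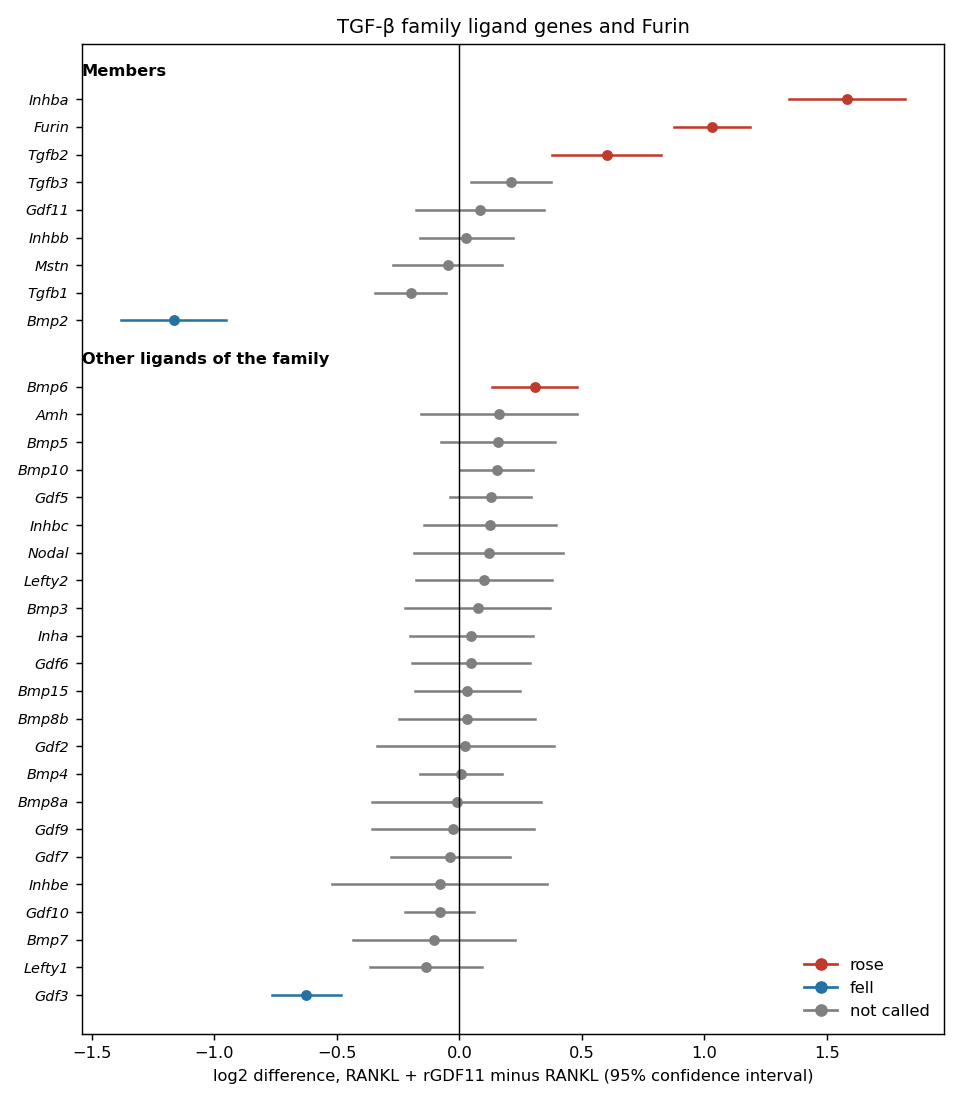
Log2 differences, rGDF11 plus RANKL minus RANKL alone, with their 95% confidence intervals from limma, for the 9 genes and the 23 other ligands. Red marks genes that rose, blue those that fell and grey those not called, and most other ligands lie around 0, with *Gdf3* at -0.63 and *Bmp6* at 0.31.

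Genes of other convertases and of tolloid proteases were read beside *Furin*, and whether they act on these ligands here was not tested. Of 6 other convertases, *Mbtps1*, which encodes the site-1 protease, rose by a log2 difference of 0.32 (adjusted p = 0.0129). *Pcsk7*, which encodes a convertase of many tissues, differed by -0.57 (adjusted p = 0.000952), and *Pcsk1*, which encodes a prohormone convertase, by -0.60 (adjusted p = 0.0186), and both fell. With rGDF11 *Pcsk1* had a mean of 5.35, near the 95th percentile of the sensory receptor probe sets, 5.30. Replicate 2 with rGDF11, at 5.08, lay below it. The other 3 were not called, and the median was 0.10. Among all probe sets, 7.31% rose and 8.64% fell. Of 3 tolloid proteases, which free GDF11 and myostatin from their prodomains, *Bmp1* rose by 0.35 (adjusted p = 0.00941).

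Of 16 genes for storage and activation of latent TGF-β, 7 rose, 2 fell and 7 were not called. Their median log2 difference was 0.24, against 0.02 over all probe sets, of which 7.31% rose and 8.64% fell. This list and those below were chosen with earlier results of these data known, and no list was tested as a set. The largest differences were those of *Mmp14*, a membrane-bound matrix protease, at 1.57, of the urokinase gene *Plau* at 1.42, of *Itgav*, the αv integrin chain of receptors that activate latent TGF-β, at 1.08, and of *Mmp2*, a gelatinase, at 0.97. *Itgav* had values of 11.74, 11.76 and 11.76 with rGDF11 and of 10.68, 10.66 and 10.66 with RANKL alone, with no overlap (adjusted p = 2.52e-05). The integrin β chain genes on the list, *Itgb6* and *Itgb8*, were not called. Their means were 3.25 and 4.58 with rGDF11 and 3.31 and 4.35 with RANKL alone. All lay under the 95th percentile of the sensory receptor probe sets, 5.30. The thrombospondin gene *Thbs1*, the latent TGF-β binding protein gene *Ltbp1* and *Lrrc32*, which encodes the surface anchor GARP, rose by 0.73, 0.59 and 0.35. The rise of *Lrrc32* started near background, from a mean of 5.40 with RANKL alone. *Mmp9*, a gelatinase of osteoclasts, and *Nrros*, which encodes an anchor of latent TGF-β on myeloid cells, were the 2 that fell, with differences of -0.62 and -0.57.

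**Figure D4:**
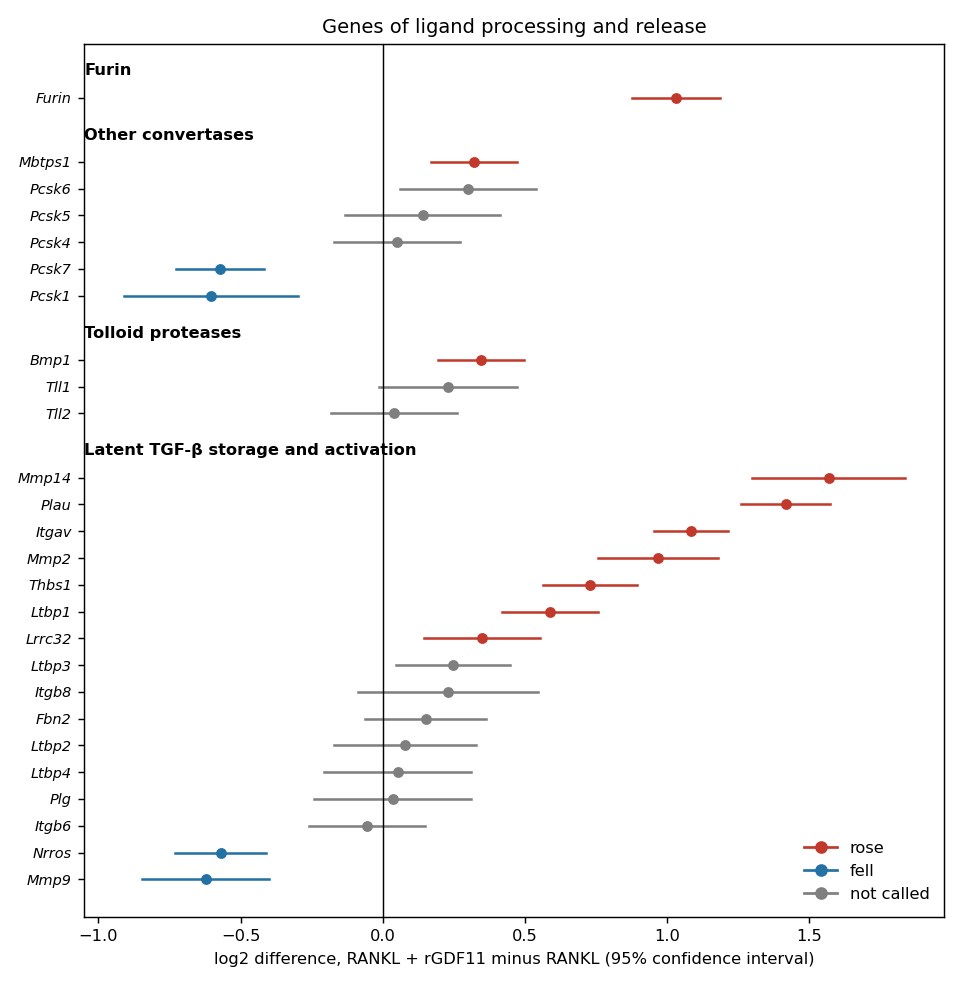
Log2 differences, rGDF11 plus RANKL minus RANKL alone, with 95% confidence intervals from limma, for *Furin*, 6 other convertases, 3 tolloid proteases and 16 genes for storage and activation of latent TGF-β. Red marks genes that rose, blue those that fell and grey those not called, and *Mmp14* at 1.57 and *Plau* at 1.42 lie to the right of *Furin* at 1.03.

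Of 19 genes for proteins that bind ligands or modulate their action outside the cell, 4 rose and 0 fell, with a median log2 difference of 0.14. The shares over all probe sets were 7.31% and 8.64%. *Tmeff1*, which encodes a membrane protein with follistatin domains, differed by 3.71, the biglycan gene *Bgn* by 1.02, *Fstl1*, a follistatin-like gene, by 0.64 and the BMP antagonist gene *Grem1* by 0.42. *Fst* and *Fstl3*, whose products bind activins and GDF11, differed by 0.14 (adjusted p = 0.233) and 0.18 (adjusted p = 0.367) and were not called.

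Of 15 receptors and co-receptors, 3 rose and 4 fell, with a median of 0.01. For these and for the Smad genes below, the shares over all probe sets were 7.31% up and 8.64% down. The type I receptor gene *Tgfbr1* rose by 1.36, *Bmpr2* by 0.52 and *Acvr1* by 0.47. The endoglin gene *Eng* differed by -1.37, and the type I receptor genes *Acvrl1*, *Bmpr1a* and *Acvr1b*, the last of them a receptor of activin A, by -0.66, -0.53 and -0.50. The type II receptor genes of activins, *Acvr2a* at -0.23 (adjusted p = 0.194) and *Acvr2b* at 0.04 (adjusted p = 0.744), were not called. Of 8 Smad genes, the inhibitory *Smad7* and *Smad6* rose by 1.55 and 0.49 and *Smad5*, of the BMP branch, by 0.73, while 5 were not called.

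The genes whose values followed those of *Inhba* most closely over the 6 arrays were *Thbs1* (Pearson's r = 0.999), *Odf3l1* (r = 0.998) and *Tlr2*, a Toll-like receptor gene (r = 0.996), among 9917 genes with a mean above the median. For *Bmp2* they were *Zbtb8a*, *Samd9l* and *Dipk2a*, each with r = 0.999 among 9918 genes. With 6 arrays in 2 groups, r mostly reads the step between the groups, and 68 genes exceeded 0.99 for *Inhba* and 159 for *Bmp2*.

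The cells carried macrophage markers, 8 of 8 above the 95th percentile of the sensory receptor probe sets, among them *Csf1r*, the receptor gene of M-CSF, which differed by -0.08 on the log2 scale and was not called. Of these 8, *Fcgr1*, *Cd14*, *Adgre1*, *Cd68* and *Itgam* fell, by differences of -1.41, -1.06, -0.51, -0.28 and -0.24, and 0 rose. Their summed level (log2) ran from 14.52 to 14.60 with rGDF11 and from 14.82 to 14.85 with RANKL alone. Of 8 markers of osteoclast precursors, 6 rose and 0 fell, with summed levels of 12.62 to 12.75 with rGDF11 and 11.52 to 11.63 with RANKL alone. *Acp5* and *Ctsk*, which encode the osteoclast enzymes TRAP and cathepsin K, rose by 1.87 and 0.92, the proton pump subunit gene *Atp6v0d2* by 1.58, the transcription factor gene *Nfatc1* by 1.33, and the fusion genes *Ocstamp* and *Dcstamp* by 1.09 and 0.63.

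Stromal cells and fibroblasts also express *Inhba* and *Tgfb2*, and 4 of their 10 markers rose (*Col1a1*, *Col1a2*, *Pdgfrb* and *Alpl*) and 0 fell. Their summed level ran from 9.59 to 9.77 with rGDF11 and from 9.15 to 9.34 with RANKL alone, and *Lepr*, *Lum* and the osteoblast factor gene *Sp7* were within the range of the sensory receptor probe sets. Of 4 megakaryocyte and platelet markers, *Pf4* and *Ppbp* fell, with summed levels of 9.30 to 9.51 with rGDF11 and 10.07 to 10.20 with RANKL alone. Of 8 neutrophil markers, *S100a8* and *Ngp* rose and 6 were not called, with summed levels of 10.14 to 10.37 with rGDF11 and 9.58 to 9.76 with RANKL alone. The brightest of the 8 was *Ngp*, with means of 9.28 with rGDF11 and 8.28 with RANKL alone. Of 5 B cell markers, *Cd79b* fell by a log2 difference of -1.19 and 4 were not called. Summed levels were 7.32 to 7.68 with rGDF11 and 8.04 to 8.21 with RANKL alone. The median log2 difference of the 5 was 0.14, however, and only *Cd79b* lay above the 95th percentile of the sensory receptor probe sets. Of 5 dendritic cell markers, *Flt3* and *Itgax* rose and 3 were not called, with summed levels of 8.68 to 8.87 with rGDF11 and 8.14 to 8.16 with RANKL alone. The brightest of the 5 was *Itgax*, with means of 8.04 with rGDF11 and 7.10 with RANKL alone. *Flt3* stayed under the 95th percentile of the sensory receptor probe sets, at 5.23 with rGDF11 and 4.98 with RANKL alone. Beside the counts of all these marker lists, and of those for macrophages and osteoclast precursors, 7.31% of all probe sets rose and 8.64% fell. The part of these cell types in the ligand results was not tested.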

How the data were processed

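The authors hybridised total RNA to Affymetrix arrays and normalized it by the robust multichip average, and the log2 values they deposited were taken without further normalization. The paper names Expression Console and, as the submitters' processing notes also do, Transcriptome Analysis Console 3.0. The annotation release and genome build were not given in the sources used here. Of 35556 probe sets, 21789 had 1 gene symbol, 1621 several and 12146 none, and rows with no symbol were left out.

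A linear model per probe set with group as its factor was fitted in limma 3.58.1 (R 4.3.3) and moderated by eBayes with no variance trend. Two-sided p-values of the 23410 probe sets tested were adjusted by the Benjamini-Hochberg method, with calls at an adjusted p under 0.05. Confidence intervals are at 95%. The median array value lay between 6.11 and 6.18. Arrays correlated across probe sets at 0.997 to 0.998 within a group and at 0.989 to 0.991 between groups. The median SD within a group was 0.11. Arrays have no sequencing depth, and their number limits the precision. The fit was tested on simulated data. Gene pairs were compared by an exact permutation test on the difference of their log2 values, adjusted over 5 pairs, of which the 2 that involve a signal in the background range (*Bmp2* and *Mstn*) are not reported.

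The genes and all lists were chosen with earlier results of these data known. The text names every gene of the set, up to 4 called genes per pathway list with the largest change, the 3 genes most alike *Inhba* and *Bmp2*, the defining markers *Csf1r*, *Cd68*, *Adgre1*, *Acp5* and *Ctsk*, and marker lists with called genes. Other genes that complete a short count, and *Fst*, *Fstl3*, *Acvr2a*, *Acvr2b*, *Itgb6* and *Itgb8*, were added after their values were seen. Marker lists for erythroid cells, T and NK cells, mast cells and endothelial cells had 1, 1, 1 and 3 called genes. Promoters came from RefSeq (GRCm38.p6). Alternatives changed which rows were tested, the filter on dim ones, normalization, the variance model, the methods' t-test, thresholds, the replicate block and each array left out.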

Additional observations from a re-analysis of the deposited data

How the results depend on the processing

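*Inhba*, *Tgfb2*, *Furin* and *Bmp2* kept their direction and their call at an adjusted p under 0.05 under every alternative that tested them, with log2 differences of 1.499 to 1.654, 0.52 to 0.68, 0.99 to 1.08 and -1.22 to -1.09 and adjusted p of at most 0.00770, 0.0447, 0.00441 and 0.0101. Filters on dim probe sets left genes out: a mean above the median dropped *Tgfb2* and *Bmp2*, and a mean above the 95th percentile of sensory receptor probe sets dropped *Bmp2*. *Tgfb1* was called lower under both filters and with a variance trend in eBayes, which gave 2 genes lower. *Tgfb3* was called higher under the second filter (adjusted p = 0.0436). The cause was not tested.

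Over all probe sets, 446 were higher and 649 lower by the methods' t-test at the methods' threshold, 483 and 694 by limma at that threshold, and 845 and 1183 by limma at an adjusted p under 0.01. The methods' t-test with adjustment at 0.05 gave 1273 and 1597. Leaving out 1 array gave 1129 (without rGDF11 replicate 1) to 1357 higher. With the replicate block, 1676 were higher and 1943 lower, and of the 9 genes 3 were higher and 1 lower. Arrays of the same replicate number had deviations that correlated at 0.06, 0.33 and -0.0008. Replicate 3 with rGDF11 correlated best with replicate 1 of RANKL alone, at 0.27. With 3 arrays per group, such deviations cannot decide whether the numbers pair the samples. Calls higher made up 45.8% of all calls, 49.4% after quantile normalization and 42.2% after median centring. *Mstn*, *Flt3*, *Lepr*, *Lum*, *Sp7*, *Itgb6* and *Itgb8*, and *Bmp2* with rGDF11 and *Fst* with RANKL alone, had signals at or below the 95th percentile of the background gauge. *Pcsk1* with rGDF11, and *Lrrc32*, *Gdf11*, *Inhbb*, *Tgfb2* and *Bmp6* with RANKL alone, had means near it.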
